A study of Homo sapiens with 29 samples.

Results

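The genes described here were the chromatin modifier and remodeller genes whose transcription was followed in HEK293, a cell line from human embryonic kidney, by DRB/TTchem-seq, which sequences RNA made in a short pulse after Pol II is let go from a block near the promoter. They were chosen by gene symbol alone, with a pattern covering the main families of histone-modifying enzymes, chromatin readers, remodellers and DNA methylation enzymes. No measured value entered the pattern, but it was chosen with earlier results of these data known. The pattern matched 73 of the 4592 genes listed in the deposited tables (1.59%). By family these were 24 ATP-dependent remodellers and their subunits, 15 readers, 12 histone methyltransferases and their partners, 11 histone demethylases, 5 histone acetyltransferases, 5 DNA methylation enzymes and 1 histone deacetylase, HDAC2. Families were set by symbol and not by activity. ARID4A, ARID4B and ARID5B were thus filed with the remodellers, and the demethylases PHF2 and PHF8 with the readers.

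The study examined whether THOC5, a subunit of the THO complex that links transcription to mRNA processing and export, affects the movement of Pol II along genes. HEK293 cells received lentivirus with the control hairpin (shCtrl, also written shCr) or a hairpin against THOC5 (shTHOC5) and were kept for 4 days. In both groups 100 μM DRB, a reversible CDK9 inhibitor that holds Pol II near promoters, was applied for 3.5 h and then washed out, and newly made RNA was marked with 1 mM 4SU, a uridine analogue, for 10 min. Cells were collected 10, 20, 30 and 40 min after the release, from a separate dish for each time. Every hairpin and release time had 1 library, 8 libraries in all. There was no replicate, so a difference between the hairpins at a given time is a difference between a pair of libraries, its error is unknown, and no test or p-value is given. None of these 8 libraries came from cells without DRB. THOC5 is not among the listed genes, and the tables hold only genes of 60017 to 298761 bp, so neither the depletion nor the identity of the cell line was checked here.

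Chromatin modifiers write, erase and read chemical marks on histone tails and on DNA. Methyltransferases and acetyltransferases place marks, demethylases and deacetylases remove them, and readers carry bromodomains, PHD fingers and similar modules that bind modified histones. Remodellers use ATP to slide, eject or exchange nucleosomes, usually inside large complexes such as SWI/SNF, NuRD, CHD and INO80. Many of these proteins are encoded by long, broadly expressed genes, on which an advancing front of Pol II can be followed over many kilobases.

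For each gene and time the tables give a wave peak, the position called as the peak of the wave of newly made RNA. Where wave peaks are called a front below, the peak is meant, which need not be the leading edge of Pol II. The wave peak was searched for in a window that opens 2 kb before the transcription start site (TSS) and closes 120 kb after it. All positions below are distances in kb from the annotated TSS. The first position of the window lies at -2 kb, and the last position lies at 120 kb, so values at these edges are limits of the search and not places where a front was resolved. Each gene also has a rate of elongation (kb/min), a coverage of its window in reads scaled to a sum of 1000000 over the listed genes (rpm), and a mark if it passed the authors' filters. The deposited rate is the slope through the 4 wave peaks and a point at position 0 and 0 min, counted from the window start, and this held for all 4592 genes. In that fit a nearer 10-min wave peak raises the rate and a wave peak that stands far from the TSS at all times also gives a high rate, so rates are given beside the positions.

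NSD2 and GATAD2B lead the group here. NSD2 (ENSG00000109685, chromosome 4, 1871393 to 1982207 on the plus strand of GRCh38) encodes the methyltransferase that places dimethylation on lysine 36 of histone H3. In control cells its wave peaks at 10, 20, 30 and 40 min were at 4.52, 7.94, 37.0 and 120 kb, and all series of positions below follow this order of times. Upon depletion of THOC5 they were at the window start and then at 4.34, 6.35 and 41.0 kb. At each of the 4 times the depleted library thus lay nearer the TSS, and the 30-min position in depleted cells, 6.35 kb, was short of the 20-min position in control cells. The first 3 control wave peaks and the last 3 depleted ones fell in introns of NSD2. The 40-min control wave peak was at the last position of the window, 9.19 kb past the gene end and over NELFA on the opposite strand, so the front of NSD2 itself was not resolved there. NSD2 had a deposited rate of 2.76 kb/min in control, against 0.944 kb/min upon depletion, a ratio of 0.342, and the control rate rests on that edge position.

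GATAD2B (ENSG00000143614, chromosome 1, 153789030 to 153923360 on the minus strand) encodes a scaffold subunit of the NuRD complex, which joins nucleosome remodelling with histone deacetylation. Its control wave peaks were at 1.45, 2.36, 3.49 and 4.35 kb, the 10-min one in an exon and the others in an intron. Upon depletion the wave peak was called at the window start for 10 and 20 min and reached 1.89 and 4.38 kb at 30 and 40 min. The depleted libraries lay nearer the TSS at the first 3 times, and at 40 min the positions were alike. The rates, 0.147 and 0.167 kb/min in control and depleted cells, ran the other way from the early positions, because the 10-min position has a negative weight in the deposited fit.

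The promoters of these genes and of SETD7 and HDAC2 are printed to show where the annotated starts lie. NSD2 and GATAD2B start within 1 kb of the same place in RefSeq and in the annotation behind the tables, while the RefSeq starts of SETD7 and HDAC2 lie 50.5 and 40.2 kb inside the listed genes. Each run is the 150 bases before the RefSeq start on GRCh38.p14, 5′ to 3′ on the coding strand, at chr4:1871243-1871392 (plus) for NSD2, chr1:153922973-153923122 (minus) for GATAD2B, chr4:139556220-139556369 (minus) for SETD7 and chr6:113971149-113971298 (minus) for HDAC2. Capitals mark matches to GGGCGG or CCAAT on either strand, and the runs of SETD7 and HDAC2 hold none.
NSD2: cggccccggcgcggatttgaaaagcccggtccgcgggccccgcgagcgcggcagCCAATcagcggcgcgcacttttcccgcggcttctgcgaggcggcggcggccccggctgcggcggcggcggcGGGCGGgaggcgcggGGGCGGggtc
GATAD2B: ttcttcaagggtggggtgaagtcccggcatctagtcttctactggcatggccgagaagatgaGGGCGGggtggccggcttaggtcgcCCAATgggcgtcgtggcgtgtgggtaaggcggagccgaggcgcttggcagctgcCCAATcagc
SETD7: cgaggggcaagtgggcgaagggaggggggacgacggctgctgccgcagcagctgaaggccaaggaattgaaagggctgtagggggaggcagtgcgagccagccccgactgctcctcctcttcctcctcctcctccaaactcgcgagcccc
HDAC2: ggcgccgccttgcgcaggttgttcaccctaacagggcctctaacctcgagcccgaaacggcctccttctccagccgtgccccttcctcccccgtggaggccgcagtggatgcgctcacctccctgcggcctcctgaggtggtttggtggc

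Motifs were searched in the 250 bases before the RefSeq start, on both strands, for the 60 chromatin genes whose symbols matched RefSeq promoters. GGGCGG, the core of the GC box, was present in 42 of them (70.0%), against 63.1% of 3679 listed genes and 42.3% of all 27305 promoters of the table. TATAAA was present in 2 (3.33%, against 6.28% and 11.1%), and CCAAT in 17 (28.3%, against 31.4% and 33.0%). The palindromic NRF1 site was found in PHF14 alone (1.67%, against 1.96% and 1.13%), and ACTTCCGG, an ETS-type site, in 1 gene (1.67%, against 4.27% and 3.64%). The median GC content of these 250 bases was 68.6%, against 64.8% over the listed genes and 58.0% over all promoters. The chromatin genes were thus GC-rich like the long genes they were listed with, and the letters alone say nothing of which factors bind.

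The first question was how many of these genes showed a front that moved on with time. In control cells the 4 wave peaks stood in order, each farther downstream than the one before, in 21 of the 73 genes (28.8%, against 13.2% of all listed genes). In THOC5-depleted cells they were in order in 36 genes (49.3%, against 31.3%). In most of these 36 the earliest wave peak was called at the window start, which is not a resolved front. In control this held for ARID5B, BPTF, CHD8, INO80, JARID2 and SMARCAD1 alone among the 21. The larger depleted count thus does not show that more genes had a moving front upon depletion. Both series were in order in 16 genes (21.9%, against 9.23%), among them ARID5B, BAZ1A, BPTF, BRWD1, CREBBP, GATAD2A, JARID2, KDM2A, KDM4B, KDM5B, NSD2, PHF8, SETD7, SMARCAD1 and SMARCC1. Only the control series was in order in 5 genes, ATRX, BAZ1B, CHD8, GATAD2B and INO80 (6.85%, against 4.01%). Only the THOC5-depleted series was in order in 20 genes (27.4%, against 22.1%). The chromatin genes also had more coverage than the listed genes. Their median was 334 rpm in control and 370 rpm in depleted cells, against 110 and 132 rpm, and 63 of them had at least 100 rpm in both series (86.3%, against 50.0%). Among those 63 genes, 21 were in order in control (33.3%, against 20.4% of listed genes above that floor) and 31 in depleted cells (49.2%, against 43.7%). The gap to the background was thus smaller above the floor of 100 rpm, most of all in depleted cells. Coverage above the floor was not matched.

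The authors' filters kept 13 of the 73 genes in control cells (17.8%, against 4.92%) and 11 in THOC5-depleted cells (15.1%, against 10.0%). The 13 in control included BAZ1A, BAZ1B, CREBBP, GATAD2A, GATAD2B, KDM2A, KDM4B, KDM5B, NSD2, PHF8, SETD7 and SMARCC1. The 11 in depleted cells were ARID1A, BRWD1, CHD7, HDAC2, KDM5B, PHF20L1, PHF21A, PHF3, PHF8, SETD7 and TET1. KDM5B, PHF8 and SETD7 were kept in both (4.11%, against 2.40%). With at least 100 rpm in both series the shares were 20.6% in control, against 9.83%, and 15.9% in depleted cells, against 19.0%. ATRX and BRWD1 had ordered control wave peaks, over 100 rpm and a 10-min wave peak past the TSS, yet carried no mark in control cells, so the mark is not fully set by the columns at hand.

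Of the 13 genes kept in control, 11 were still in order upon depletion of THOC5 (84.6%, against 83.6% of all genes kept in control), but only 3 were kept (23.1%, against 48.7%). In 8 of the 13, among them BAZ1A, BAZ1B, CREBBP, GATAD2A, GATAD2B, NSD2 and SMARCC1, the depleted 10-min wave peak was called at the window start (61.5%, against 35.0%). The filters ask for a first wave peak past the TSS and so remove such genes. Over all 73 chromatin genes the wave peak was at the first position at 10 min in 30 control genes (41.1%, against 33.8%) and in 47 depleted ones (64.4%, against 47.5%). At 20 min the count was 21 in either series (28.8%, against 27.0% in control and 30.2% in depleted cells), and at 40 min it was 12 and 10 genes (16.4% and 13.7%, against 15.6% and 15.0%). With at least 100 rpm in both series the 10-min counts were 24 of 63 genes in control (38.1%, against 36.3%) and 40 of 63 in depleted cells (63.5%, against 54.2%). Wave peaks at the window start were thus more frequent in the depleted library at 10 min and about as frequent in both series from 20 min on.

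**Figure D1:**
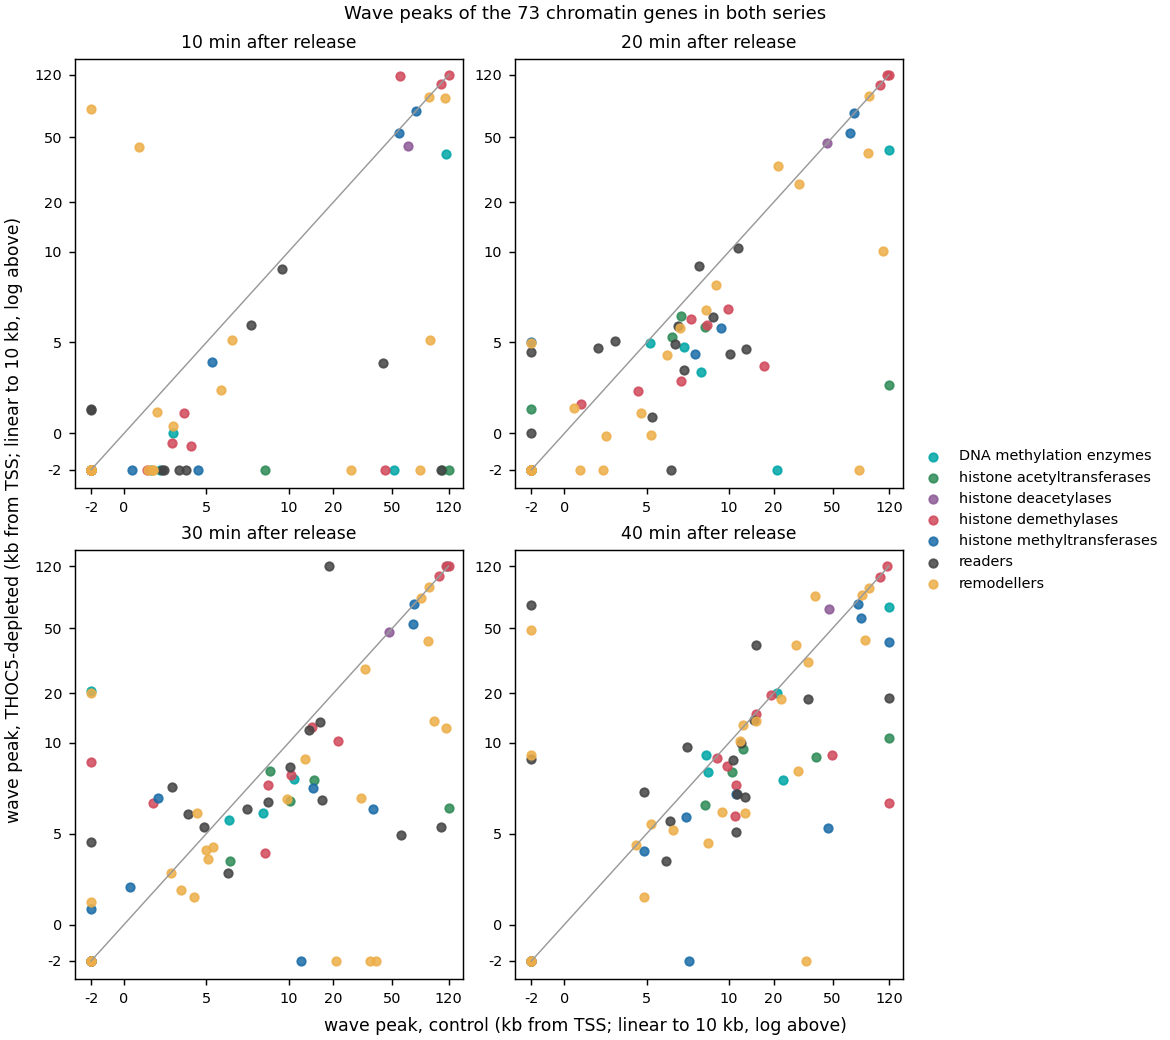
Wave peak of each of the 73 chromatin genes in control (x axis) and THOC5-depleted cells (y axis), in kb from the TSS, linear to 10 kb and logarithmic above, with a panel for each release time and a colour for each family. Points under the diagonal are nearer the TSS in depleted cells, 37 genes at 10 min, 41 at 20 min, 43 at 30 min and 47 at 40 min, and the row at -2 in the 10-min panel holds the 47 depleted wave peaks at the first position of the window.

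Among the 12 histone methyltransferases and their partners, NSD2 and SETD7 were in order in both series. SETD7, which methylates lysine 4 of histone H3 and several other proteins, had control wave peaks at 55.8, 65.1, 69.5 and 78.3 kb. In THOC5-depleted cells they were at 52.9, 53.1, 53.2 and 58.0 kb. The control front advanced by over 20 kb between 10 and 40 min, while the depleted front stayed within 1 kb up to 30 min. NSD1, a second enzyme for lysine 36 of histone H3, lay at 5.32, 9.53, 14.7 and 11.2 kb in control and at 3.91, 5.79, 7.50 and 7.20 kb in depleted cells. It was nearer the TSS in the depleted library at every time, but neither series was in order. EZH2, the catalytic subunit of the Polycomb repressive complex PRC2, was at the first position until 30 min in control and jumped to 46.6 kb at 40 min. In depleted cells EZH2 reached 0.863 and 5.31 kb at 30 and 40 min. SUZ12, another PRC2 subunit, reached 0.368 and 4.86 kb at 30 and 40 min in control, and 2.05 and 4.06 kb in depleted cells. EZH2 and SUZ12 thus left the window start late in both series. SETD2, which places trimethylation on lysine 36 of histone H3, was at 0.512 kb, the first position, 2.04 and 7.39 kb in control and at the first position, 5.04, 6.95 and 5.94 kb in depleted cells. NSD3 was at the first position at all 4 times in depleted cells and had left it in control by 30 and 40 min (12.1 and 7.55 kb). KMT2E, a relative of the MLL proteins, stood between 70.0 and 73.9 kb in all 8 libraries. ASH1L, EHMT1, SETD3 and SETD5 were at the first position of the window in all 8 libraries, so no front could be followed on them. With ARID4A, CHD5, KDM7A and PBRM1 they made up 8 such chromatin genes (11.0%, against 7.80%). In control alone BRWD3 and CHD1 joined them, 10 genes in all (13.7%, against 9.76%), and in depleted cells INO80D and NSD3 (13.7%, against 11.7%). The control coverage of the 4 methyltransferase genes ran from 186 rpm (SETD3) to 603 rpm (ASH1L), within the 186 to 626 rpm of the family.

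Of the 11 genes filed with the histone demethylases, 4 were in order in both series. KDM5B, which removes methylation from lysine 4 of histone H3, had control wave peaks at 3.64, 8.64, 10.4 and 49.7 kb and depleted wave peaks at 1.10, 5.97, 8.22 and 9.34 kb. The depleted library was nearer the TSS by 2.54, 2.67 and 2.23 kb at the first 3 times and by 40.3 kb at 40 min, when the control wave peak lay in an exon far downstream of the earlier ones. KDM4B, an eraser of marks on lysines 9 and 36 of histone H3, was at 2.94, 7.09, 8.56 and 11.0 kb in control. In depleted cells KDM4B was at -0.502, 2.88, 3.93 and 5.95 kb. Its lag widened step by step, from 3.45 to 5.09 kb. KDM2A, which acts on lysine 36, showed the opposite course. Its control wave peaks were at 4.06, 9.93, 14.3 and 15.2 kb, its depleted ones at -0.673, 6.86, 12.5 and 15.0 kb, and the lag narrowed from 4.73 to 0.168 kb. JARID2, a PRC2 subunit without demethylase activity that is filed here by name, was at the first position at 10 min in both series, then at 7.67, 8.74 and 9.89 kb in control and at 6.27, 7.67 and 8.73 kb in depleted cells. The JARID2 lag stayed between 1.08 and 1.40 kb over the last 3 times. KDM5A, the closest relative of KDM5B in the group, was at 1.42, 4.50, 1.73 and 9.30 kb in control and at the first position, 2.35, 6.71 and 9.18 kb in depleted cells. KDM6A, which acts on lysine 27, was at 1.01 kb at 20 min, the first position at 10 and 30 min and 11.2 kb at 40 min in control, and at 1.62, 8.95 and 7.66 kb at the last 3 times in depleted cells. KDM1A, the lysine 4 demethylase LSD1, was at 44.5, 17.3, 21.7 and 19.2 kb in control, out of order, and at the first position, 3.71, 10.2 and 19.5 kb in depleted cells, in order. KDM2B was at the last position of the window in every library except the depleted 40-min one, which was at 6.67 kb. KDM1B and KDM3B had wave peaks beyond the gene, described further on, and KDM7A was at the first position in all 8 libraries with 58.6 and 81.9 rpm.

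All 5 histone acetyltransferase genes had wave peaks in order in THOC5-depleted cells, where 31.3% of all listed genes did, and only CREBBP did in control, against 13.2%. CREBBP, the CBP coactivator (ENSG00000005339), was at 1.66, 7.09, 8.87 and 38.9 kb in control and at the first position, 6.45, 8.42 and 9.19 kb in depleted cells. The 20-min and 30-min positions differed by 0.634 and 0.453 kb, and the gap opened to 29.7 kb at 40 min. EP300, which encodes p300, was out of order in control because its 10-min wave peak was called at the last position of the window, over L3MBTL2. The later control wave peaks were at 6.56, 10.2 and 10.4 kb. In depleted cells EP300 was at the first position, 5.30, 6.78 and 8.39 kb. At 20 to 40 min EP300 was thus nearer the TSS in the depleted libraries by 1.26 to 3.41 kb. KAT6B, the catalytic subunit of a MOZ/MORF complex, was at 109, 8.53, 14.8 and 12.5 kb in control and at the first position, 5.86, 7.94 and 9.68 kb in depleted cells. KAT6A, its paralogue, was at 6.43 and 8.57 kb at 30 and 40 min in control after 2 times at the first position, and at 1.34, 3.49 and 6.60 kb at 20, 30 and 40 min in depleted cells. KAT2B (PCAF) was at 8.56 kb at 10 min and at the last position afterwards in control, with only 39.7 rpm, and at the first position, 2.68, 6.42 and 10.7 kb in depleted cells, with 104 rpm. The depleted series thus gave ordered positions on these 5 genes from 20 min on, and its 10-min wave peak was at the window start in all 5. Control wave peaks over 100 kb from the TSS interrupted the order on KAT6B and, at the last position of the window, on EP300 and KAT2B. With 1 library per time, the library and the depletion cannot be told apart.

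HDAC2, a class I deacetylase of the NuRD, SIN3 and CoREST complexes, was at 63.6, 45.8, 47.5 and 47.3 kb in control and at 44.2, 46.3, 47.6 and 66.0 kb in depleted cells. The positions at 20 and 30 min differed by less than 1 kb, and the far wave peak was the 10-min one in control and the 40-min one in depleted cells. Its rates, 0.825 and 1.39 kb/min, are shaped by these far wave peaks and by the distance at which all of them stood.

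The 24 remodeller genes included 4 in order in both series. GATAD2A, the NuRD relative of GATAD2B, had control wave peaks at 26.2, 29.7, 32.7 and 33.9 kb and was at the first position, 25.8, 28.1 and 31.0 kb in THOC5-depleted cells. The lag was 28.2 kb at 10 min, set by the window start, and 3.90, 4.62 and 2.89 kb afterwards. SMARCC1, a core subunit of SWI/SNF, was at 1.73, 4.66, 5.41 and 6.59 kb in control. In depleted cells SMARCC1 was at the first position, 1.12, 4.27 and 5.21 kb, nearer the TSS at each time. SMARCAD1 was the exception among the 4. It was at the first position, 0.590, 5.11 and 5.26 kb in control and at the first position, 1.41, 3.62 and 5.55 kb in depleted cells, so it was farther from the TSS upon depletion at 20 and 40 min. ARID5B, a DNA-binding partner of the demethylase PHF2, was at the first position, 2.54, 2.87 and 8.73 kb in control and at the first position, -0.160, 2.85 and 4.48 kb in depleted cells.

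Other SWI/SNF genes were less readable. ARID1A, the largest subunit of the canonical complex, was at 6.55, 9.23, 12.9 and 11.8 kb in control and at 5.15, 8.14, 9.08 and 10.3 kb in depleted cells, nearer the TSS at all times. SMARCA4, the ATPase BRG1, was at 76.9 kb, the first position, 38.8 and 38.3 kb in control and at the first position until 79.1 kb at 40 min in depleted cells. SMARCA2, the ATPase BRM, was between 83.4 and 114 kb in control and at 86.7, 39.9, 42.0 and 42.5 kb in depleted cells. Neither ATPase gene thus showed an ordered front in any series. ARID2 was at the first position until 30 min and at 22.6 kb at 40 min in control, and at 20.0 and 18.5 kb at 30 and 40 min in depleted cells. PBRM1, of the PBAF form of the complex, never left the first position in any of the 8 libraries. Of the SIN3 complex subunits, ARID4A never left it either, and ARID4B was at 4.45 and 9.60 kb at 30 and 40 min in control and at 4.99, 6.12 and 6.19 kb from 20 min on in depleted cells.

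Among the other remodeller families, ATRX, which deposits the histone variant H3.3 with DAXX, was at 2.96, 6.21, 9.92 and 12.9 kb in control. In depleted cells ATRX was at 0.424, 4.32, 6.90 and 6.12 kb. It was nearer the TSS at all 4 times, by most at 40 min. INO80, the ATPase of the complex of that name, was at the first position, 0.919, 4.24 and 29.0 kb in control and at 1.5 and 8.46 kb at 30 and 40 min in depleted cells, after 2 times at the first position. Its partner INO80D left the first position in control alone, to 35.5 and 33.1 kb at 30 and 40 min. EP400, the ATPase of the TIP60 complex, was at 5.91, 7.02 and 21.0 kb and back at the first position at 40 min in control, and at 2.38 and 5.77 kb, the first position and 48.7 kb in depleted cells. Wave peaks that return to the window start, as here, were not read as fronts. SMARCA1, an ISWI ATPase, had 37.4 and 59.3 rpm and scattered between 0.890 and 31.0 kb in control and between 6.98 and 43.5 kb in depleted cells. Of the CHD family, CHD7 was in order in depleted cells (5.16, 10.1, 12.3 and 12.9 kb) and at 89.4, 109, 116 and 12.4 kb in control, so that both series gave nearly the same 40-min position. CHD6 was at 1.98, 8.59, 95.1 and 15.3 kb in control and at 1.16, 6.80, 13.5 and 13.5 kb in depleted cells. CHD9 stayed within 5.26 kb of the TSS in both series, at 1.75, 5.26, 4.99 and 4.85 kb in control and at the first position, -0.102, 4.12 and 1.51 kb in depleted cells. The depleted CHD6 and CHD9 wave peaks were nearer the TSS at every time. CHD1 was at the first position at all times in control and reached 1.23 and 9.35 kb at 30 and 40 min in depleted cells, and CHD5, a neuronal CHD gene, was at the first position in all 8 libraries. CHD8 and SMARCAL1 had wave peaks beyond the gene end.

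Of the 15 readers, 12 were in order in THOC5-depleted cells (80.0%, against 31.3% of all listed genes) and 6 in control (40.0%, against 13.2%). BPTF, the large subunit of NURF, was at the first position, 7.25, 8.74 and 10.6 kb in control and at the first position, 3.49, 6.73 and 9.05 kb in depleted cells. BAZ1A, a partner of ISWI, was at 2.28, 6.70, 7.47 and 11.4 kb in control and at the first position, 4.92, 6.34 and 7.17 kb in depleted cells. In BPTF and BAZ1A the depleted wave peak was nearer at each time at which either had left the window start. BRWD1 moved in near parallel, at 9.62, 11.5, 13.7 and 14.7 kb in control and 9.04, 10.5, 12.0 and 13.7 kb in depleted cells, a lag of 0.58 to 1.72 kb. PHF8, a demethylase of the PHD-finger family, was at 7.74, 8.19, 16.2 and 33.9 kb in control and at 5.94, 9.20, 13.4 and 18.5 kb in depleted cells. At 20 min PHF8 was 1.01 kb farther in the depleted library, and at 40 min it was 15.4 kb nearer. BAZ1B, the Williams syndrome transcription factor, was at 3.32, 13.0 and 18.7 kb and then at the last position in control, and at the first position, 4.62 kb, the last position and 18.8 kb in depleted cells.

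The remaining readers in order in depleted cells alone were PHF3, PHF14, PHF20, PHF20L1, PHF21A, PHF21B and BAZ2B. PHF3, a Pol II-binding regulator of elongation, was at the first position, 2.06, 4.85 and 4.81 kb in control and at 1.31, 4.72, 5.36 and 7.27 kb in depleted cells. PHF20L1, a Tudor-domain protein, was at the first position, 3.06, 2.90 and 7.42 kb in control and at 1.36, 5.06, 7.56 and 9.74 kb in depleted cells. These were the 2 chromatin genes kept in depleted cells whose control 10-min wave peak was called at the window start (18.2% of the 11, against 4.77%), and both were farther from the TSS upon depletion at all 4 times. Their coverage was also higher in depleted cells, 482 against 207 rpm for PHF3 and 130 against 51.8 rpm for PHF20L1, and the part of coverage in the position difference was not tested. PHF21A, a subunit of the LSD1-CoREST complex, was at 43.6, 6.92, 16.8 and 15.1 kb in control and at 3.85, 5.88, 6.83 and 39.4 kb in depleted cells. PHF20 was at 2.40, 5.34, 6.29 and 6.19 kb in control and at the first position, 0.913, 2.85 and 3.50 kb in depleted cells, nearer at every time. PHF14 reached 3.89 and 12.9 kb at 30 and 40 min in control, after 2 times at the window start, and was at 4.46, 6.06 and 7.03 kb from 20 min on in depleted cells. BAZ2B left the first position in control only at 40 min (6.39 kb), and was at 0.024, 4.54 and 5.68 kb at 20, 30 and 40 min in depleted cells. PHF21B had the lowest coverage of all 73 genes, 36.2 rpm in both series, and its control wave peaks jumped between -2 and 107 kb. PHF2, a demethylase with a PHD finger, was at the first position, 6.50, 57.7 and 11.2 kb in control and at 4.93 and 5.10 kb at 30 and 40 min in depleted cells. BRWD3 was at the first position in every library except the depleted 40-min one, at 69.0 kb with 57.5 rpm.

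Of the 5 DNA methylation enzymes, TET1, TET2 and DNMT3A were in order in THOC5-depleted cells and none was in control. TET1, which oxidises methylcytosine, was at 2.99, 8.30, 6.35 and 23.0 kb in control and at 0.041, 3.35, 5.77 and 7.96 kb in depleted cells. DNMT3A, a de novo methyltransferase, was at 51.3, 7.26, 8.45 and 8.74 kb in control and at the first position, 4.75, 6.13 and 8.37 kb in depleted cells. Both were nearer the TSS upon depletion at each time, the last DNMT3A difference being 0.365 kb. TET2 was at the first position, 5.21, 10.8 and 8.60 kb in control and at the first position, 4.96, 8.01 and 9.32 kb in depleted cells. TET3 was at 2.16, 21.1 kb, the first position and 21.1 kb in control, and at 20.7 and 20.0 kb at 30 and 40 min in depleted cells. DNMT1, the maintenance methyltransferase, was at 115, 120, 117 and 120 kb in control and at 39.6, 41.7, 120 and 67.2 kb in depleted cells, and its control wave peaks all lay beyond the gene end.

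The second question was how far the wave peaks of the same genes differed between the series. It was asked over the 16 genes in order in both, since elsewhere at least 1 series gave no ordered front. Their median difference, depleted minus control, was -3.15, -2.69, -1.77 and -3.56 kb at the 4 times. Over the 424 listed genes in order in both series the medians were -0.847, -1.21, -1.31 and -1.69 kb. All 16 genes had at least 100 rpm in both series, but the 424 were not limited to that floor. Coverage was thus not matched here or for the rates below. At 10 min 12 of the 16 genes lay nearer the TSS upon depletion (75.0%, against 60.8%), then 14 at 20 min (87.5%, against 72.6%), 16 at 30 min (100%, against 77.8%) and 15 at 40 min (93.8%, against 75.7%). The other 4 genes at 10 min, ARID5B, BPTF, JARID2 and SMARCAD1, were at the first position in both series. PHF8 and SMARCAD1 were farther at 20 min, and SMARCAD1 was farther by 0.288 kb at 40 min. At all 4 times 11 genes were nearer (68.8%, against 41.7%).

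The spread among the 16 genes grew at 40 min, when the differences ran from -79.0 to 0.288 kb. CREBBP, KDM5B, NSD2, PHF8 and SETD7 were nearer the TSS upon depletion by over 10 kb at that time (31.2%, against 19.3%). At 20 min the differences ran from -12.0 to 1.01 kb, with SETD7 at the low end. In CREBBP and KDM5B the far control position appeared at 40 min only, after 3 times at which the series were less than 4 kb apart, while in SETD7 the gap had reached 12.0 and 16.3 kb by 20 and 30 min. Without a replicate it was not tested whether these 40-min positions would be called again.

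Over all 73 genes, ordered or not, the median differences were -0.58, -1.04, -1.14 and -1.46 kb, against 0, 0, -0.569 and 0 kb over all listed genes. The wave peak was nearer in depleted cells in 37, 41, 43 and 47 genes at the 4 times (50.7%, 56.2%, 58.9% and 64.4%, against 45.9%, 48.8%, 54.2% and 49.1%). It was farther in 8, 15, 20 and 18 genes (11.0%, 20.5%, 27.4% and 24.7%, against 20.8%, 26.0%, 27.4% and 35.5%), and at an identical position in 28, 17, 10 and 8 genes (38.4%, 23.3%, 13.7% and 11.0%, against 33.3%, 25.2%, 18.3% and 15.4%). By family the 40-min median was -2.38 kb for methyltransferases, -0.33 kb for demethylases, -2.82 kb for acetyltransferases, -0.686 kb for remodellers, -1.60 kb for readers and -1.16 kb for DNA methylation enzymes. The deacetylase HDAC2 went the other way, with a depleted wave peak 18.7 kb farther from the TSS, and the methyltransferase median was 0 kb at each of the 3 earlier times.

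**Figure D2:**
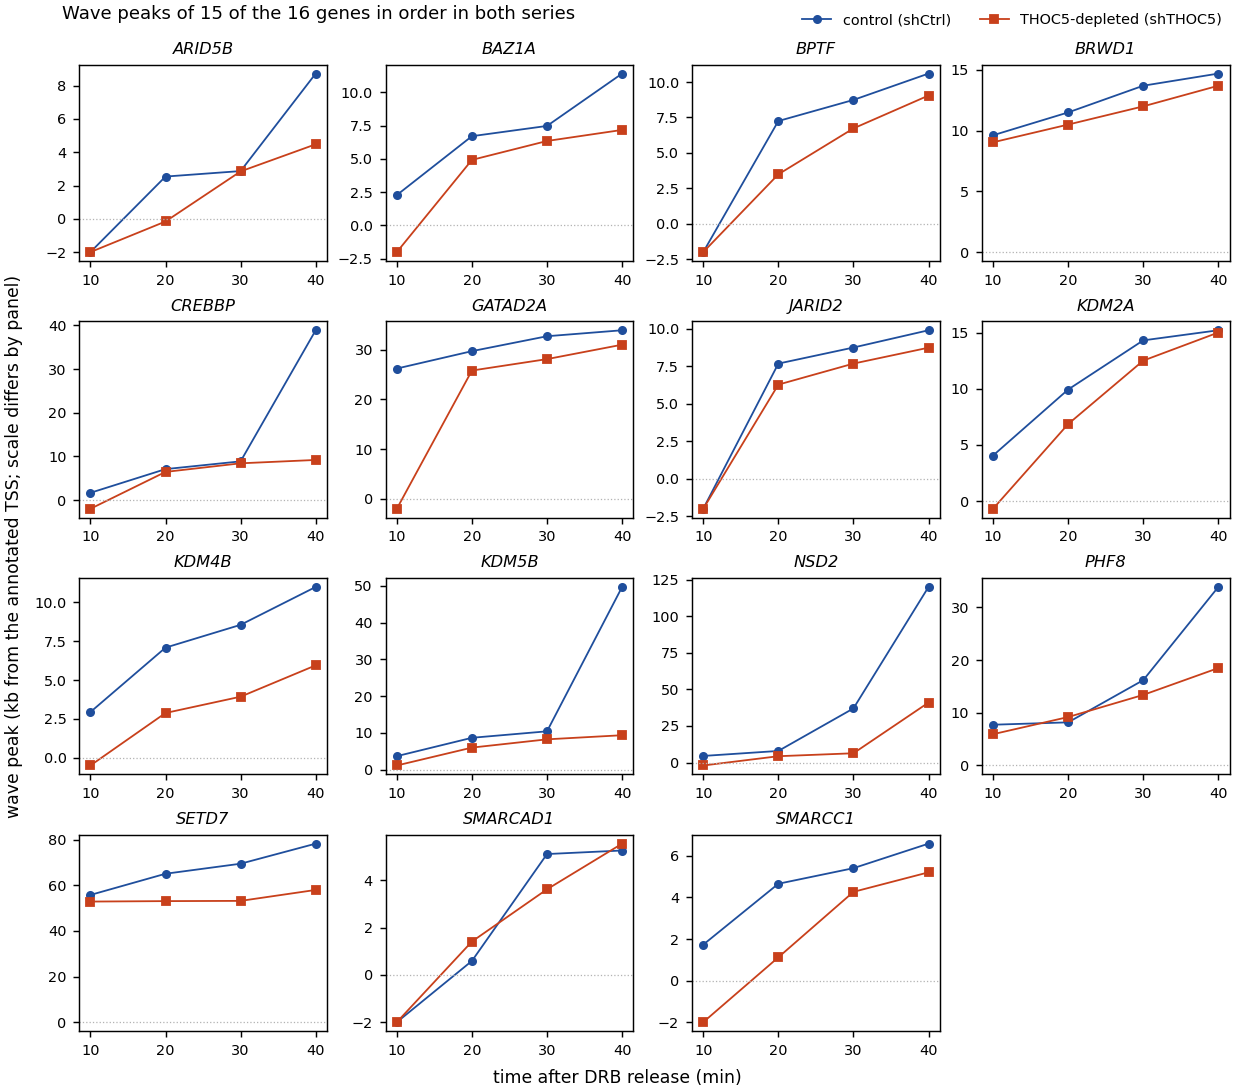
Wave peak (y axis, kb from the TSS, scale differs by panel) against time after DRB release (x axis, min) for 15 of the 16 chromatin genes in order in both series, with circles for control and squares for THOC5-depleted cells, 1 library per point. The depleted line lies below the control line at 30 min in all 15 panels, and the control line turns steeply upward at 40 min in CREBBP (38.9 kb), KDM5B (49.7 kb) and NSD2 (120 kb).

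The third comparison was of the elongation rates. In the 16 genes the deposited rate had a median of 0.368 kb/min in control, against 0.320 kb/min upon depletion. The rate was lower upon depletion in 13 genes (81.2%, against 70.3% of the 424), with a median ratio of 0.844 against 0.938. It was at least 1.5 times lower in 5 genes (31.2%, against 18.6%) and at least 1.5 times higher in none (0.00%, against 3.77%). The lowest ratio was that of KDM5B, 0.298 against 1.10 kb/min (0.271), followed by NSD2 (0.342) and CREBBP, 0.328 against 0.890 kb/min (0.369). All 3 had the far 40-min control position described above. PHF8 had 0.486 against 0.803 kb/min (0.605), and KDM4B 0.203 against 0.317 kb/min (0.641). KDM4B was unlike them, with no step over 4.15 kb between its control wave peaks.

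The highest ratios were those of GATAD2A, 0.960 against 0.783 kb/min (1.23), and KDM2A, 0.471 against 0.445 kb/min (1.06). In both the depleted wave peak was nearer the TSS at all 4 times, and by most at 10 min. The ratio of SETD7 was 0.690 (1.20 against 1.74 kb/min), that of ARID5B 0.676 (0.178 against 0.263 kb/min) and those of BAZ1A, BPTF, BRWD1, JARID2, SMARCAD1 and SMARCC1 lay between 0.834 and 0.993. A higher deposited rate therefore did not mean a front farther along the gene.

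A slope through the 4 release times that leaves out the 0-min point gave another order of the genes. SETD7, whose wave peaks all stood over 50 kb from the TSS, had 0.720 and 0.153 kb/min in control and depleted cells by this slope. GATAD2A had 0.260 and 1.01 kb/min, the depleted slope being raised by the start at the window edge. NSD2 had 3.75 and 1.31 kb/min, KDM5B 1.40 and 0.270 kb/min, and CREBBP 1.14 and 0.355 kb/min. The slope was lower upon depletion in 11 of the 16 genes (68.8%, against 59.2%), and BAZ1A, GATAD2A, KDM2A and SMARCC1 were among those with a higher one. These 4 had a depleted 10-min wave peak upstream of the TSS, at -0.673 kb in KDM2A and at the first position in the rest, as had CREBBP, KDM4B, NSD2 and others with a lower slope.

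**Figure D3:**
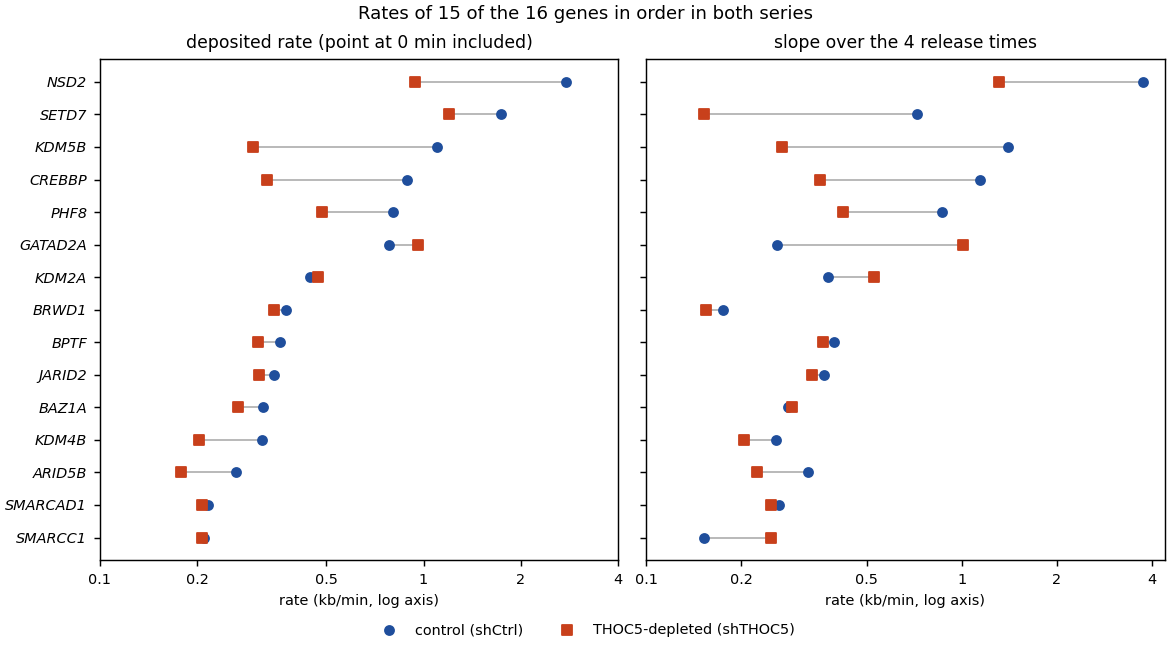
Deposited rate (left, fit with the point at 0 min) and slope over the 4 release times (right), in kb/min on log axes, for 15 of the 16 chromatin genes in order in both series, with circles for control, squares for THOC5-depleted cells and a line joining each pair. SETD7 moves from 1.74 and 1.20 kb/min on the left to 0.720 and 0.153 kb/min on the right, and GATAD2A from 0.783 and 0.960 kb/min to 0.260 and 1.01 kb/min.

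The rates of the genes kept by the filters give a different selection in each series. The 13 genes kept in control had a median of 0.783 kb/min, from 0.147 (GATAD2B) to 2.76 kb/min (NSD2), against 0.732 kb/min over the 226 listed genes kept there. The 11 kept in depleted cells had a median of 0.344 kb/min, from 0.226 (PHF3) to 1.39 kb/min (HDAC2), against 0.506 kb/min over 461 genes. Since only 3 genes are in both sets, these medians are of different genes and are not a comparison of the hairpins.

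Most wave peaks within the genes lay in introns. Of 190 control wave peaks inside the annotated genes 184 were intronic and 6 exonic, and of 180 depleted ones 170 were intronic and 10 exonic, while exons made up 8.77% of the sequence from the TSS to the gene end or 120 kb. Wave peaks beyond the gene end came from few genes. At 40 min they were found in 8 control genes (11.0%, against 18.2%) and 4 depleted ones (5.48%, against 17.6%). SMARCAL1, which anneals DNA at stalled forks, had wave peaks between 88.0 and 89.8 kb in all 8 libraries, over RPL37A on the same strand. KDM1B lay between 103 and 106 kb in all 8 libraries, over DEK on the opposite strand. KDM3B was at 116 kb over EGR1, an immediate-early gene on the same strand, at 20 to 40 min in control, and at 118 to 120 kb in depleted cells. CHD8 was over SUPT16H at 75.5, 78.4 and 78.6 kb at 20, 30 and 40 min in control and at 74.7, 76.6 and 79.6 kb at 10, 30 and 40 min in depleted cells. The CHD8 order in control was thus made by wave peaks 4.55 to 7.63 kb past its own end. BAZ1B at the last position lay 38.1 kb past its end, KAT2B 6.04 kb and DNMT1 22.1 kb, the last over PPAN on the opposite strand. The deposited rates of SMARCAL1, 1.81 and 1.82 kb/min, and of KDM1B, 2.09 kb/min in both series, came from positions that did not advance with time.

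The annotated start also bears on the positions. Of the 60 chromatin genes with a RefSeq start, 50 had it within 1 kb of the annotated gene start, 9 had it over 1 kb downstream (15.0%, against 21.4% of listed genes) and 1, BAZ2B, had it 95.9 kb upstream. The 9 were ARID1A (2.78 kb), PHF8 (3.82 kb), BRWD1 (7.93 kb), CHD8 (18.9 kb), SMARCA2 (35.1 kb), DNMT1 (36.3 kb), HDAC2 (40.2 kb), SETD7 (50.5 kb) and KMT2E (73.3 kb). Among chromatin genes kept in either series, 5 of 16 matched ones had such a start (31.2%), and over all listed genes the share was 25.6% of those kept in control and 36.3% of those kept in depleted cells. Counted from the RefSeq start whose promoter is printed above, SETD7 was at 5.29, 14.6, 19.0 and 27.8 kb in control and at 2.43, 2.61, 2.74 and 7.50 kb in depleted cells. HDAC2 was at 23.4, 5.69, 7.35 and 7.13 kb in control and at 4.03, 6.17, 7.44 and 25.9 kb in depleted cells. KMT2E wave peaks, between -3.24 and 0.647 kb from that start, lay around the RefSeq promoter itself and overlapped LINC01004 in 6 libraries and KMT2E-AS1 in 1. In SMARCA2 some depleted wave peaks lay shortly past the RefSeq start, at 4.89, 6.94 and 7.45 kb from 20 min on. In DNMT1 such depleted wave peaks were at 3.25 and 5.41 kb at 10 and 20 min. The control wave peaks of both genes lay 48.4 to 83.7 kb past their RefSeq starts.

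**Figure D4:**
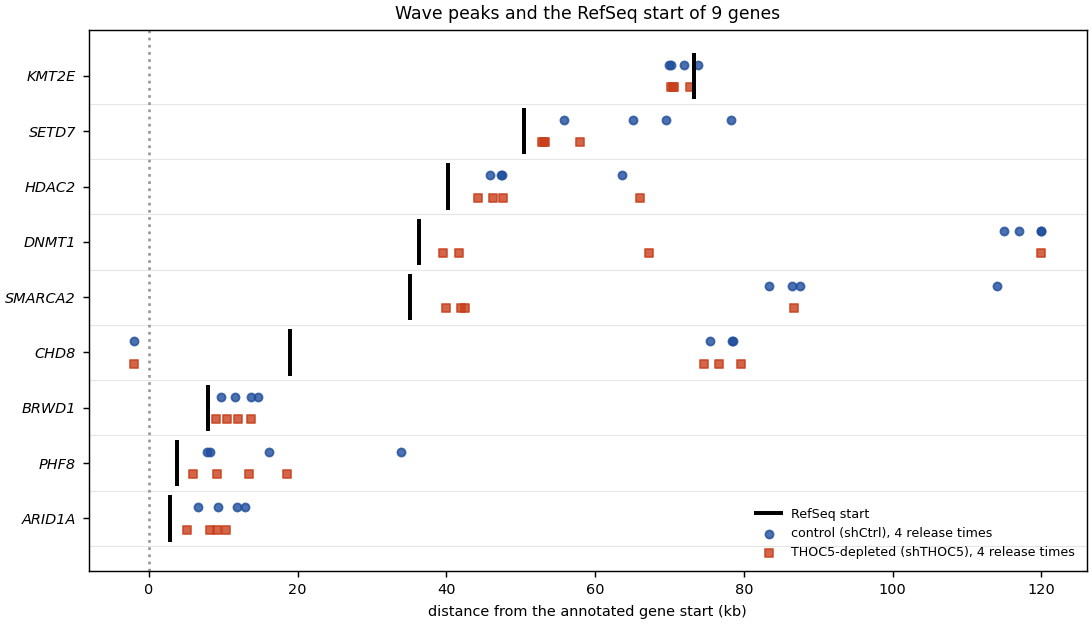
Wave peaks of the 9 chromatin genes whose RefSeq start lies over 1 kb inside the listed gene, in kb from the annotated gene start, with circles for the 4 control libraries, squares for the 4 THOC5-depleted ones and a black bar at the RefSeq start. In ARID1A, BRWD1, DNMT1, HDAC2, PHF8, SETD7 and SMARCA2 all 8 wave peaks lie downstream of the bar. Those of KMT2E gather around it at 70.0 to 73.9 kb.

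Coverage was compared last. It is scaled to 1000000 over the listed genes in each series, so a value is a share of the listed transcription and not an absolute level, and how the 4 times of a series were combined is not stated. The window has the same length for every gene. Over the 73 genes the median log2 ratio of coverage, depleted over control with 1 rpm added, was 0.13, against 0.12 over all listed genes. The highest control coverages were 1293 rpm in SMARCA4, 1188 rpm in SMARCC1 and 1163 rpm in SMARCAL1, and all 3 were lower in depleted cells, at 852, 710 and 981 rpm. For SMARCAL1 the window takes in RPL37A, so its value is not that of SMARCAL1 alone.

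Among the 69 chromatin genes with at least 100 rpm in either series, 13 had at least 1.5 times higher coverage in depleted cells (18.8%, against 20.6%) and 5 at least 1.5 times lower (7.25%, against 11.3%). The highest ratios were those of KAT2B (39.7 to 104 rpm, 2.61 times), PHF20L1 (51.8 to 130 rpm, 2.51 times) and BAZ2B (82.4 to 199 rpm, 2.42 times). The others at least 1.5 times higher were ARID2, CHD1, CHD7, KDM3B, KDM5B, PHF14, PHF3, SMARCA2, TET2 and TET3. Of these 13, BAZ2B, KAT2B, PHF20L1, SMARCA2 and TET2 had under 100 rpm in control and entered only through the depleted series in which they are high, so the count supports no direction. KDM3B had the highest depleted coverage, 1694 rpm against 964 rpm, in a window that includes EGR1. The lowest ratios were those of CHD5 (127 to 52.2 rpm, 0.412 times), KAT6B (203 to 120 rpm, 0.589 times) and SMARCC1 (1188 to 710 rpm, 0.598 times), and PHF20 and SMARCA4 were also at least 1.5 times lower. CHD5 likewise entered only through the control series. NSD2 had 542 and 431 rpm and GATAD2B 811 and 748 rpm, both within 1.5 times.

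**Figure D5:**
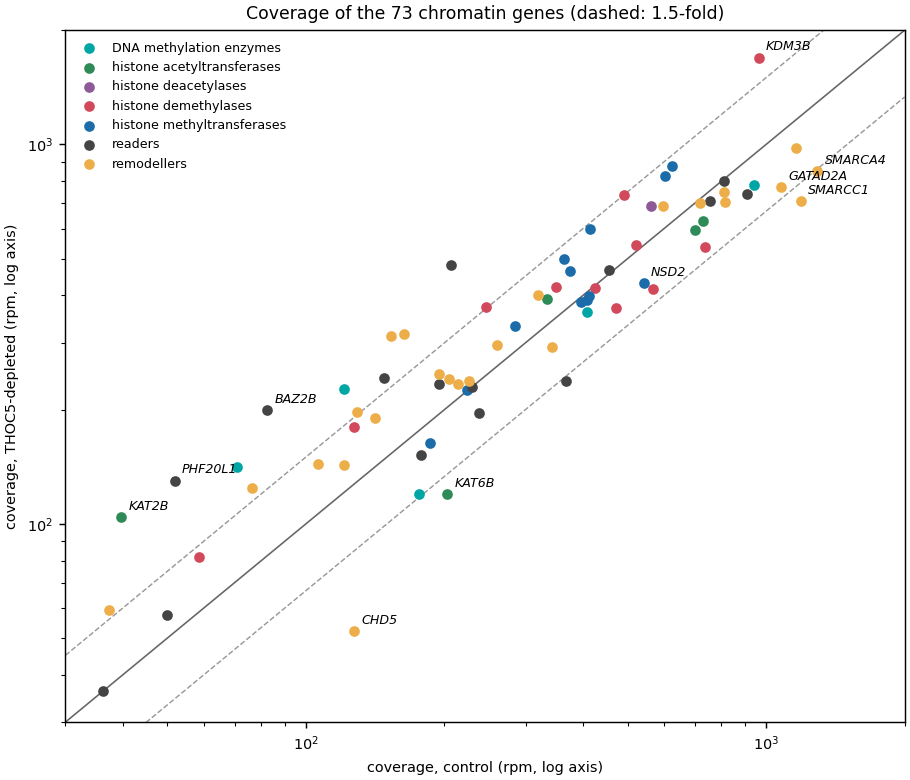
Coverage of the 73 chromatin genes in control (x axis) and THOC5-depleted cells (y axis), in rpm on log axes, with a colour for each family, a line of equality and dashed lines at 1.5 times. KAT2B, PHF20L1 and BAZ2B lie farthest above the line at low coverage, and SMARCC1 and SMARCA4 lie below it at 1188 and 1293 rpm in control.

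By pattern, the listed gene most like NSD2 in control was INSR, with a summed difference of 2.31 kb over the 4 times among 2418 other genes of at least 100 rpm, followed by APPL2 (19.2 kb) and BAZ1B (24.6 kb). In depleted cells it was KCNMB4 (2.89 kb), then NFKB1 (2.98 kb) and STK10 (3.19 kb), among 2642 genes. The genes most like GATAD2B were STARD9 (2.12 kb), UBR4 (2.93 kb) and NADSYN1 (3.32 kb) in control and, in depleted cells, included ANKRD17 (0.204 kb) and RAPGEF6 (0.447 kb). No gene was among the 3 most alike in both series for either of them.

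For comparison, 7 lists of other genes of the same pathways, 231 symbols outside the families above, held 77 listed genes. The filters kept 6 of them in control, 16 in THOC5-depleted cells and 3 in both (7.79%, 20.8% and 3.90%, against 4.92%, 10.0% and 2.40% of all listed genes). The wave peaks were in order in 16, 41 and 15 (20.8%, 53.2% and 19.5%, against 13.2%, 31.3% and 9.23%). Of the 15 in order in both, 6, 11, 12 and 10 were nearer the TSS upon depletion at 10, 20, 30 and 40 min (40.0%, 73.3%, 80.0% and 66.7%, against 60.8%, 72.6%, 77.8% and 75.7%), and their median rate ratio was 0.916, against 0.938. Named after their values were seen, the following genes show the range. ELL, a subunit of the super elongation complex, was kept in both series, at 5.07, 13.6, 15.9 and 16.4 kb in control and at 1.86, 6.60, 10.7 and 15.4 kb in depleted cells. RCOR1, the CoREST scaffold, was at the first position, 8.28, 9.13 and 16.0 kb in control and at the first position, 0.466, 6.15 and 8.55 kb in depleted cells. NCOA3, a steroid receptor coactivator, was at the first position, 9.46, 10.4 and 18.0 kb in control and at the first position, 4.21, 6.12 and 8.65 kb in depleted cells. In these 3 genes the depleted wave peak was nearer once it had left the window start. NCOA2, ERCC6 and TBL1XR1 were farther from the TSS in depleted cells at 40 min, at 9.03 against 7.16 kb, 8.45 against 6.09 kb and 41.8 against 40.7 kb.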

How the data were processed

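The authors sequenced the 4SU-labelled RNA as read pairs, scaled coverage by sequencing depth and called wave peaks with a published pipeline on windows from -2 kb to 120 kb around the TSS of non-overlapping protein-coding genes. The aligner and the gene annotation for these libraries are not given in the sources used here, and the submitters' processing notes name the build GRCh38. The deposited wave peak positions are whole numbers in bp from the window start. The deposited coverage is in RPM, since each column sums to 1000000 over the genes although it is named for RPKM, and how the 4 libraries of a series were combined is not stated. The deposited rate is a slope in kb/min, read here as a score because it can be negative. Reads per library are unknown, so no precision from depth could be given.

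Symbols, coordinates, exons and introns came from GENCODE release 44 (4590 of 4592 identifiers found, 4416 with the listed width, 72 of the 73 chromatin genes). RefSeq starts and promoters on GRCh38.p14 were matched by symbol (60 of 73). The 2 kb before the TSS were subtracted from each position, rates were refitted with 5 points, and counts and medians were set beside those of all listed genes. Coverage folds used values as deposited, and log2 ratios had 1 RPM added. Named with values were NSD2, GATAD2B, the genes kept or in order, the extremes of rate and coverage, and, by range or position, the other members. A chromatin gene and a gene of like pattern are not reported here by name, although the counts include them. The genes and lists were chosen with earlier results of these data known. No test was run, because each condition and time had 1 library. The functions were tested on simulated data. The alternatives changed the genes included, the average, the points of the fit and the scaling. Python 3.11.15, numpy 2.4.6, pandas 2.3.3 and matplotlib 3.10.9 were used.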

Additional observations from a re-analysis of the deposited data

How the results depend on the processing

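Of 66 recomputed values 45 stayed close to the reported ones and 21 moved. Close meant within 1.5 times for counts, median differences and the distance of the rate ratio from 1. For the log2 coverage ratio it meant within a fixed margin on the log2 scale. No median difference or rate ratio turned direction, while counts and coverage ratios were not labelled for direction. With ties allowed, 40 genes were in order in control and 55 in depleted cells, and omitting the 30-min time gave 34 in control, since fewer conditions were set. Without the reader families 6 genes were kept in depleted cells. Over all 73 genes the median differences were -0.58, -1.04, -1.14 and -1.46 kb. Over the 3 genes kept in both series the 30-min and 40-min values were -2.77 and -20.3 kb, and as means over the 16 genes they were -4.60 and -13.0 kb. Counts of genes nearer the TSS were 12, 14, 16 and 15 when limited to the 16 genes, and 17 at 10 min with wave peaks at the window edges left out, against 37 over all 73. The first 4 of these counts were bound to move, because no more than 16 genes could be counted, so they say nothing of stability. The median rate ratio was 0.605 in the 3 genes kept in both, 0.902 with the slope over 4 times and 0.626 as a ratio of means. The median log2 coverage ratio, reported as 0.13, was 0.0384 with at least 100 rpm in both series, which was counted as close. It was 0.00914 when centred on all listed genes. After seeing the data, genes with a RefSeq start over 1 kb away were left out, which gave a rate ratio of 0.855 and median differences between -3.66 and -1.56 kb. Leaving out instead genes with a step of over 40 kb or a last wave peak past the gene end, tried for the rate ratio alone, also gave 0.855. This removed only 1 of the 16 genes, NSD2. KDM5B and CREBBP, with largest control steps of 39.2 and 30 kb, stayed in. The part of far 40-min control positions in the rate ratio was thus not tested. The causes of the other shifts were not tested. No paired analysis was possible because there were no replicates to pair, with 1 library for each hairpin and time. The difference at each time is between the libraries of that time, and the 4 times were not treated as replicates.

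These tables hold 1 library per time, no reads per library and no signal along the gene, so whether a far or edge wave peak is a front, a neighbouring gene or noise cannot be read from them. Positions are resolved only inside the window, and coverage is relative to the listed genes.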
